A study of Homo sapiens with 22 samples.

Results

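The genes described here are 55 genes whose products drive or carry out mitosis, taken by symbol from the RNA sequencing (RNA-seq) tables of MOLM-13 and NB4 cells. They cover the mitotic kinases, CDK1 and its cyclins, the spindle assembly checkpoint, the kinetochore, the mitotic kinesins, spindle assembly, condensin and cytokinesis. All 55 symbols were present among the 20411 genes of each table. MOLM-13 and NB4 are human acute myeloid leukemia lines, labelled as wild type. MOLM-13 carries an MLL fusion and NB4 the PML-RARA fusion of acute promyelocytic leukemia. Cells received dimethyl sulfoxide (DMSO, the vehicle) or 2 µM FP54 for 48 h, with 3 libraries per treatment and line. FP54 is a degrader that joins a ligand of FTO, an RNA m6A demethylase, to a ligand of the VHL ubiquitin ligase. The control was vehicle, so an effect of the compound apart from FTO loss cannot be told apart here. The labels number the libraries as replicates but do not say whether they came from separate cultures, so the p-values measure the spread between these libraries only.

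Mitosis is driven by CDK1 bound to cyclin B, helped by the kinases PLK1, AURKA and AURKB. Microtubules attach to chromosomes at kinetochores, and the spindle checkpoint holds the anaphase-promoting complex (APC/C) inactive until every kinetochore is attached. CDC20 then activates the APC/C, which marks securin and cyclin B for destruction, separase cuts cohesin, and the chromatids part. Many of these genes are transcribed mainly in G2 and M, through the DREAM and MuvB complexes, MYBL2 and FOXM1. In bulk RNA, fewer cells in G2 and M and less of a transcript per cell cannot be told apart.

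The measured quantity was RPKM, read counts scaled for exon length and library size. The reads behind it numbered 16313396 to 17362379 in the MOLM-13 DMSO libraries and 20662773 to 22349822 in the NB4 DMSO libraries. The MOLM-13 FP54 libraries held 19207420, 5836560 and 12038702 reads, and the NB4 FP54 libraries 10602309 to 13079300. All 6 myeloid markers (PTPRC, CD33, SPI1, MPO, LYZ, CEBPA) were present in both lines. Of these, MPO fell with FP54, from 16.1 to 3.79 RPKM in MOLM-13 and from 2170 to 1116 in NB4, and PTPRC rose, from 24.3 to 35.1 and from 9.08 to 14.7. HOXA9, which MLL fusions activate, averaged 21.3 RPKM in MOLM-13 and 0.234 RPKM in NB4 under DMSO. The erythroid markers HBB and HBA1 were at or near 0 in every library. Of 5 lymphoid markers, CD3D was at 6.35 RPKM in NB4 under DMSO and 10.3 with FP54, and the other 4 were at most 1.17 RPKM in the mean of any group. Of 4 epithelial and stromal markers, EPCAM was at 8.15 RPKM in NB4 with DMSO and 9.71 with FP54, KRT18 was at 11.5 with DMSO and was not called, and KRT8 rose there from 1.22 to 1.86. In MOLM-13 KRT18 fell from 7.35 to 4.9 RPKM, EPCAM was near 0 and KRT8 was under the filter, and COL1A1 was at most 0.223 in either line. The part of these markers in any result was not tested. FTO mRNA itself averaged 1.01 RPKM in both MOLM-13 groups, which overlapped. In NB4 it averaged 2.73 ± 0.18 RPKM with DMSO and 2.03 ± 0.0782 with FP54 (mean ± SD, n = 3). The groups did not overlap there, but the log2 fold change of -0.41 was under the cutoff used for calls. FP54 acts on the FTO protein, so the mRNA does not check its target.

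In NB4 a larger share of the mitotic genes than of all genes was called lower with FP54. In MOLM-13 the share was near that of all genes, and no member was called higher in either line. The median log2 fold change of the members minus that of all genes was alike, at -0.31 in NB4 and -0.28 in MOLM-13. AURKA, TPX2, NCAPH and PTTG1, called in both lines, had standard errors of 0.16 to 0.22 in MOLM-13 and 0.08 to 0.09 in NB4. A gene was called where limma gave an unadjusted p below 0.01 and the log2 fold change on log2(RPKM + 0.1) reached 0.5 in size, the cutoff of the study's own methods. In NB4, 17 of 55 genes fell (30.9%), set against 10.7% of all 9853 genes tested. None rose, set against 18.6% of all genes. At an unadjusted p below 0.05 alone 28 members were lower (50.9%, set against 24.7% of all genes). At that cutoff 1 was higher (1.82%, set against 33.3%). In MOLM-13, 5 of the 53 genes tested fell (9.43%), which is close to the 9.04% of all 9710 genes. None rose there, set against 9.3% of all genes. At an unadjusted p below 0.05 alone 12 members were lower (22.6%, set against 17.4% of all genes). At that cutoff 0 were higher, set against 17.6%. Limma-voom on reads recovered from the RPKM values also called 0 members higher in each line. CENPA and PRC1 had a mean RPKM below 1 in MOLM-13 and were not tested there.

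With a Benjamini-Hochberg adjusted p below 0.05 and the same fold, the 17 NB4 calls and the 5 MOLM-13 calls were again past the threshold, all of them lower. In either direction, 29.8% of all genes passed that rule in NB4 and 18.2% in MOLM-13. In NB4 the 3 FP54 libraries lay below all 3 DMSO libraries for 30 of 55 genes (54.5%), set against 26.2% of all genes. They lay above for none of the 55, set against 34.3% of all genes. In MOLM-13 the FP54 libraries lay below for 13 of 53 genes (24.5%), set against 17% of all genes, and above for none, set against 20.2%. With 3 libraries a side the smallest two-sided exact permutation p is 0.1, so single genes were judged by limma. The median log2 fold change of the members was -0.24 in NB4, where that of all genes was 0.07, and -0.28 in MOLM-13, where that of all genes was 0.00. The estimate was below 0 for 44 of 55 members in NB4 (80%, set against 44.2% of all genes) and for 44 of 53 in MOLM-13 (83%, set against 49.7%).

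In NB4 the balance of calls over all genes depended on scaling. With RPKM as deposited, 1050 genes were lower and 1834 higher. With quantile normalization 1363 were lower and 1280 higher, and 12 members were then called lower and 0 higher. With median-ratio scaling 1328 were lower and 1609 higher, and 19 members were called lower. The gap between members and all genes also depended on scaling. The median log2 fold change of the members minus that of all genes was -0.31 as deposited. It was -0.18 with quantile normalization and -0.31 with median-ratio scaling. The mean of 416 olfactory receptor genes, which myeloid cells are not known to use, was 0.00168 to 0.00372 RPKM in the NB4 DMSO libraries and 0.0496 to 0.0549 in the NB4 FP54 libraries. Subtracting it from every gene left 17 members called lower. Of the 17 NB4 calls, 11 held at the same cutoff in every refit run, including those without single libraries. The other 6 dropped below the fold cutoff in at least 1. CCNA2, CCNB2 and CDC20 did so with quantile normalization (-0.43, -0.37 and -0.48), and DLGAP5 and INCENP did so with it (-0.44 and -0.39) and without DMSO replicate 1 (-0.46 and -0.46). DLGAP5 did so also without FP54 replicate 1 (-0.49), and NEK2 with a pseudocount of 1 (-0.47), without DMSO replicate 1 (-0.45) and without FP54 replicate 3 (-0.50 after rounding).

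**Figure D1:**
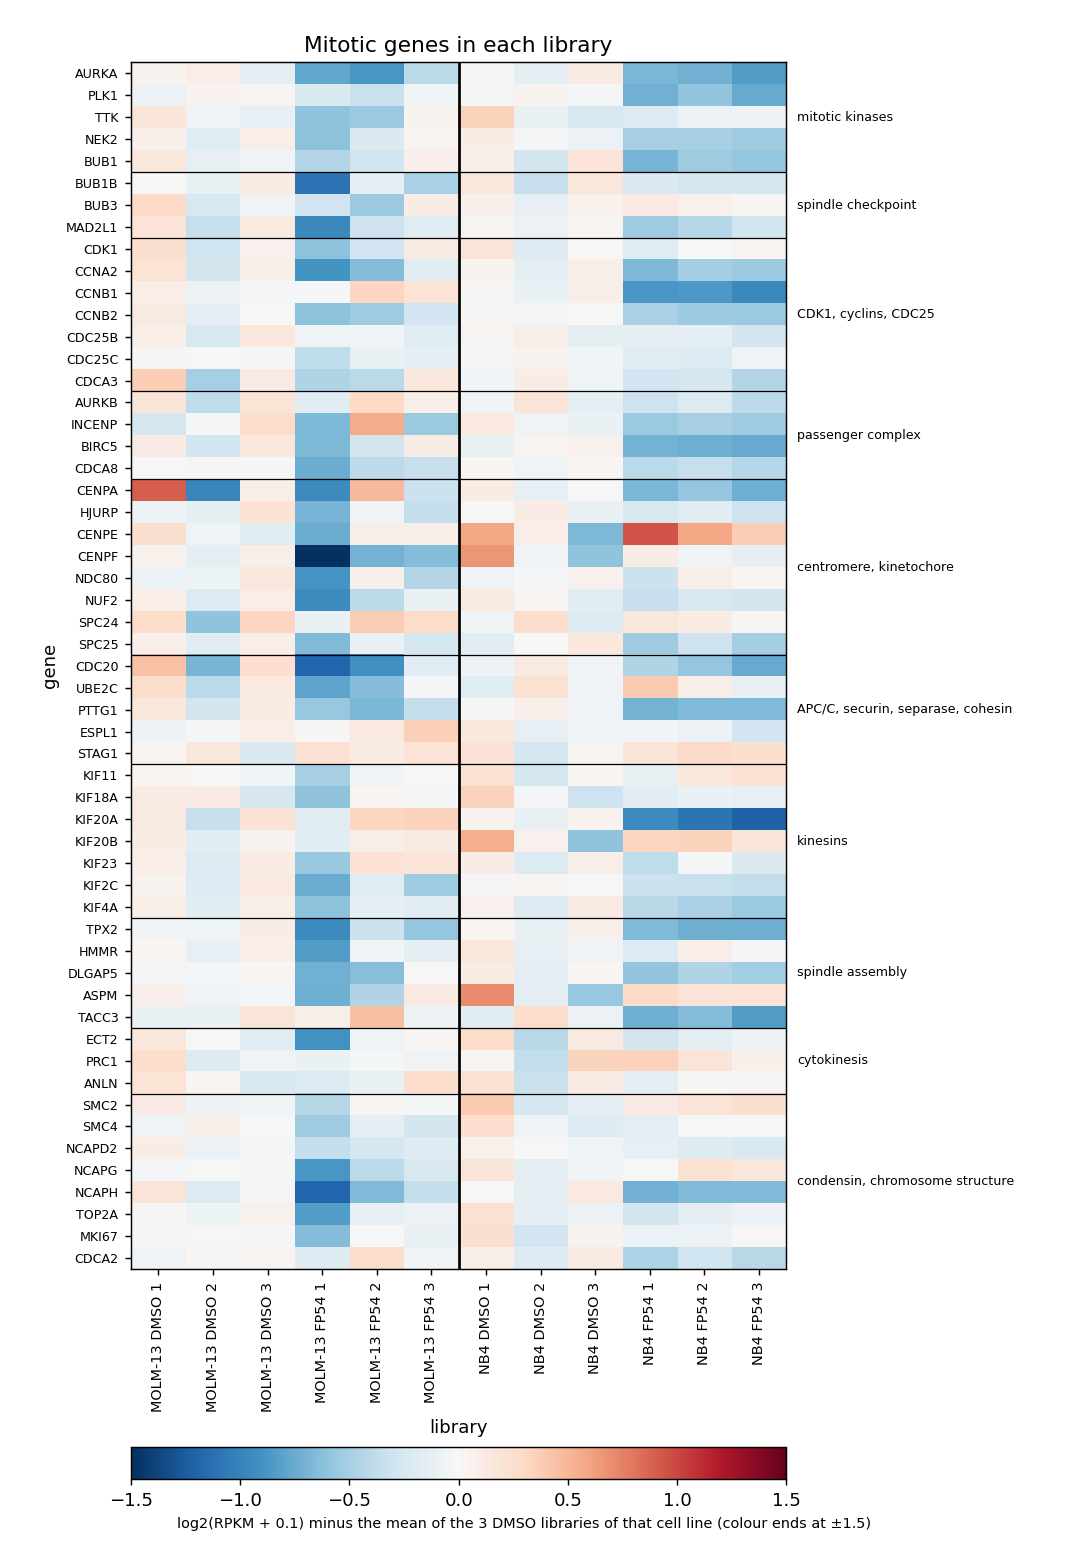
Level of each of the 55 mitotic genes (rows, grouped by role) in each of the 12 libraries (columns), as log2(RPKM + 0.1) minus the mean of the 3 DMSO libraries of the same line, with blue for lower and red for higher. In NB4 45, 40 and 40 of the 55 genes are below the DMSO mean in FP54 replicates 1, 2 and 3. In MOLM-13 the median is -0.62 in FP54 replicate 1 and -0.13 and -0.08 in replicates 2 and 3. CENPA and PRC1 are drawn for MOLM-13 although they were below the filter there.

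The FP54 libraries of the 2 lines differed in how alike they were. In NB4 the median member stood at -0.29, -0.20 and -0.28 (log2) against the DMSO mean in FP54 replicates 1, 2 and 3. Between 40 and 45 of the 55 genes lay below that mean in each of these libraries. In MOLM-13 it stood at -0.62 in FP54 replicate 1, with 50 of 53 genes below the DMSO mean. It stood at -0.13 and -0.08 in replicates 2 and 3, with 38 and 33 genes below. The 3 MOLM-13 DMSO libraries themselves stood at 0.09, -0.11 and 0.06, so the members in FP54 replicates 2 and 3 were near the lowest DMSO library. FP54 replicate 1 was also the deepest MOLM-13 library, and its median over all genes was 0.03. That median was -0.07 and 0.06 in MOLM-13 FP54 replicates 2 and 3, so the order of these 2 libraries depends on the reference. In the NB4 FP54 libraries it was 0.04, 0.08 and 0.09. The RPKM of the 55 genes summed to 670, 599 and 671 in the MOLM-13 DMSO libraries and to 430, 586 and 573 in the FP54 libraries. In NB4 the sums were 2084, 1851 and 1923 with DMSO and 1509, 1572 and 1524 with FP54.

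The MOLM-13 count changed when single libraries were left out. The share of all genes called in each of these refits is not given here, so a change common to all genes cannot be told apart. Without FP54 replicate 1 or without DMSO replicate 3, 2 members were called lower, and without DMSO replicate 1, 3 were. Without DMSO replicate 2 or FP54 replicate 2, 8 were called, and without FP54 replicate 3, 12 were. CENPF and AURKA were the 2 still called without FP54 replicate 1. The median log2 fold change was then -0.12, and -0.41 without FP54 replicate 3.

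Of the 5 mitotic kinases, 4 fell in NB4 (80%, set against 10.7% of all genes). AURKA alone fell in MOLM-13 (20%, set against 9.04%). None of the 5 passed the test of a difference between the lines, which is given below. The same shares of all genes apply to the small groups that follow. AURKA (chr20:56369389-56392337, minus strand, hg38) encodes Aurora A, which matures centrosomes and builds the spindle poles. Its RPKM in MOLM-13 was 12.2, 12.6 and 10.6 in the DMSO libraries and 6.8, 6.39 and 8.83 in the FP54 libraries. In NB4 it was 49.1, 44.1 and 53.0 with DMSO and 30.2, 29.5 and 27.1 with FP54. The groups did not overlap in either line, and FP54 left 62.3% of the DMSO mean in MOLM-13 and 59.4% in NB4. The log2 fold change was -0.69 (SE 0.16, adjusted p = 0.0194) in MOLM-13 and -0.75 (SE 0.09, adjusted p = 8.8e-05) in NB4. In MOLM-13 the adjusted p reached 0.0871 without FP54 replicate 1.

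PLK1 (chr16:23677656-23690367, plus strand), the Polo-like kinase that acts from mitotic entry to cytokinesis, fell in NB4. It stood at 47.4, 49.9 and 47.3 RPKM with DMSO and at 29.2, 32.1 and 28.5 with FP54. The FP54 libraries were all lower, by -0.69 on the log2 scale (SE 0.08, adjusted p = 6.81e-05). In MOLM-13 PLK1 was scarce, at 3.1, 3.43 and 3.4 RPKM with DMSO and 2.84, 2.59 and 3.16 with FP54. These groups overlapped, and the estimate was -0.21 (SE 0.16, adjusted p = 0.399). BUB1, a kinase that recruits checkpoint and cohesion-protecting proteins to kinetochores, and NEK2, which parts the centrosomes, also fell in NB4, with log2 fold changes of -0.60 and -0.51. Their MOLM-13 estimates of -0.22 and -0.26 were not called. TTK, the MPS1 kinase that starts the checkpoint signal, was called in neither line (-0.36 in MOLM-13 and -0.12 in NB4).

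The group of CDK1, its cyclins, its phosphatases and CDCA3 holds 7 genes. Of these, 3 fell in NB4 (42.9%, set against 10.7% of all genes) and 0 in MOLM-13 (set against 9.04%). CDK1, the kinase itself, stood at 40.7, 31.1 and 35.8 RPKM with DMSO and 31.5, 35.4 and 36.6 with FP54 in NB4. The groups overlapped, and the estimate was -0.05 (SE 0.11) in NB4 and -0.26 (SE 0.21) in MOLM-13. CCNB1, which encodes cyclin B1, stood in NB4 at 104, 96.8 and 110 RPKM with DMSO and at 56.6, 57.0 and 52.7 with FP54. FP54 left 53.5% of its DMSO mean, a log2 fold change of -0.90 (SE 0.08, adjusted p = 1.19e-05). In MOLM-13 CCNB1 stood at 13.7, 12 and 12.6 RPKM with DMSO and 12.6, 16 and 14.7 with FP54. The MOLM-13 groups overlapped and the estimate was 0.17 (SE 0.15, adjusted p = 0.43).

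Of the other cyclins, CCNA2, the S and G2 cyclin, fell by 0.58 on the log2 scale in NB4, and its MOLM-13 estimate was -0.57 (SE 0.20, adjusted p = 0.0695), with overlapping groups. CCNB2, cyclin B2, fell by 0.53 in NB4. In MOLM-13 its estimate of -0.48 (SE 0.15, adjusted p = 0.0489) was just under the fold cutoff, with the groups apart. CDC25B and CDC25C, the phosphatases that activate CDK1, and CDCA3 were called in neither line, with estimates from -0.33 to -0.10.

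Of the 4 genes of the chromosomal passenger complex, BIRC5 and INCENP fell in NB4 (50%, set against 10.7% of all genes). In MOLM-13 0 of 4 were called, set against 9.04% of all genes lower and 9.3% higher. That complex holds Aurora B at centromeres and corrects faulty attachments. BIRC5, which encodes survivin, stood at 32.0, 35.7 and 36.3 RPKM with DMSO and 20.8 ± 0.327 RPKM (mean ± SD, n = 3) with FP54. The FP54 libraries were all lower, at 60% of the DMSO mean (log2 fold change -0.73, SE 0.08, adjusted p = 4.92e-05). INCENP, the scaffold, fell by 0.53 on the log2 scale, from a DMSO mean of 64.7 ± 5.88 RPKM to 44.6 ± 1.06 with FP54 (mean ± SD, n = 3). CDCA8 (borealin) and the kinase AURKB were lower by less than the fold cutoff, at -0.39 and -0.30, again with the groups apart. In MOLM-13 CDCA8 was at -0.50 (SE 0.15, adjusted p = 0.0479), a value of -0.496 before rounding that missed the cutoff. BIRC5, INCENP and AURKB overlapped in MOLM-13, where INCENP ranged from 13.1 to 31.0 RPKM among the FP54 libraries.

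The checkpoint proteins MAD2L1, BUB1B (BUBR1) and BUB3, which together inhibit CDC20, were called in neither line. MAD2L1 came nearest in NB4, at -0.42 (SE 0.09, adjusted p = 0.00319) with the groups apart. BUB1B was at -0.58 in MOLM-13 (SE 0.22, adjusted p = 0.0921), where its FP54 libraries stood at 6.54, 12.9 and 10.1 RPKM and its DMSO libraries at 14.3, 13.1 and 15.3. The groups did not overlap, but 1 FP54 library lay just below the lowest DMSO library.

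At the centromere and kinetochore, CENPF fell in MOLM-13 and CENPA in NB4. CENPF (chr1:214603185-214664574, plus strand) encodes a large protein of the outer kinetochore. In MOLM-13 it stood at 12.7, 11 and 12.9 RPKM with DMSO and 3.78, 7.39 and 7.7 with FP54. All FP54 libraries were lower, and the log2 fold change of -1.01 (SE 0.25, adjusted p = 0.0207) was the largest of the 53 members tested in that line. In NB4 CENPF stood at 57.1, 34.7 and 23.6 RPKM with DMSO and 38.8, 34.7 and 32.8 with FP54. The DMSO libraries there enclosed all 3 FP54 libraries, and the estimate was -0.03 (SE 0.24). CENPA, the histone H3 variant that marks centromeres, stood in NB4 at 17.9, 15.1 and 16.5 RPKM with DMSO and 10.2, 11 and 9.89 with FP54. These groups were apart, with a log2 fold change of -0.67 (SE 0.09, adjusted p = 0.000233).

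CENPE, a kinetochore motor, was the only member with an unadjusted p below 0.05 in the upward direction, in NB4. It stood at 10.4, 7.41 and 4.29 RPKM with DMSO and 13.4, 10.4 and 8.95 with FP54. The groups overlapped, and the estimate of 0.63 (SE 0.26) had an adjusted p of 0.0672. Without DMSO replicate 1 of NB4, CENPE, ASPM and KIF20B were called higher, with log2 fold changes of 0.92, 0.58 and 0.55. These 3 genes and CENPF had wide DMSO spreads in NB4, with DMSO replicate 1 the highest each time. The NDC80 complex, which binds microtubules, has the subunits NDC80, NUF2, SPC24 and SPC25, and none was called in either line. SPC25 was lowest in NB4, at -0.45 (SE 0.10, adjusted p = 0.00417), while SPC24 was at 0.10. HJURP, the chaperone that loads CENPA, was at -0.24 in NB4 and -0.36 in MOLM-13.

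Around the APC/C, PTTG1 fell in both lines and CDC20 in NB4. PTTG1 encodes securin, the inhibitor of separase. In MOLM-13 it stood at 12.8, 9.35 and 12.3 RPKM with DMSO and 7.62, 7.04 and 8.84 with FP54. The groups were apart, with a log2 fold change of -0.54 (SE 0.17, adjusted p = 0.0481). That call was lost with a pseudocount of 1 (log2 fold change -0.49), with no filter, with limma-voom, with eBayes without trend, and without DMSO replicate 1, DMSO replicate 3, FP54 replicate 1 or FP54 replicate 2 (-0.45, -0.48, -0.52 and -0.46). In NB4 PTTG1 stood at 45.2, 48.6 and 44.6 RPKM with DMSO and 28.2, 29.1 and 29.2 with FP54, a log2 fold change of -0.67 (SE 0.08, adjusted p = 5.63e-05).

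CDC20, the activator of the APC/C in mitosis, fell in NB4 from 45.5 ± 3.72 to 30.1 ± 3.1 RPKM (mean ± SD, n = 3; log2 fold change -0.59, SE 0.10, adjusted p = 0.000656). In MOLM-13 it was among the lowest members, with 9 to 71 reads a library, and its estimate of -0.76 (SE 0.35) had an adjusted p of 0.15. UBE2C, the ubiquitin-conjugating enzyme of the APC/C, and ESPL1, separase, were called in neither line.

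STAG1 (chr3:136336236-136752403, minus strand), a cohesin subunit, was called in neither line. It stood in MOLM-13 at 7.28, 7.99 and 6.07 RPKM with DMSO and 8.33, 7.65 and 8.16 with FP54, an estimate of 0.18 (SE 0.15, adjusted p = 0.42). In NB4 it stood at 13.4, 9.6 and 11.9 RPKM with DMSO and 13.0, 14.1 and 13.6 with FP54, an estimate of 0.24 (SE 0.12, adjusted p = 0.121). Both pairs of groups overlapped. Of its exon bases, 21.2% also lie in exons of PCCB on the other strand, and the strand setting of the counting is not given in the sources used here.

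Of the kinesins, KIF20A alone was called, in NB4. KIF20A (chr5:138178719-138187723, plus strand), also called MKLP2, moves the passenger complex to the central spindle for cytokinesis. In NB4 it stood at 23.5, 21.0 and 23.5 RPKM with DMSO and 11.6, 10.6 and 9.67 with FP54. FP54 left 46.8% of the DMSO mean, and the log2 fold change of -1.09 (SE 0.10, adjusted p = 1.05e-05) was the largest of the 55 members. In MOLM-13 it stood at 3.01, 2.13 and 3.22 RPKM with DMSO and 2.45, 3.47 and 3.52 with FP54. Those groups overlapped, and the estimate was 0.17 (SE 0.22). KIF4A, a chromokinesin, and KIF2C, which takes microtubules apart at centromeres, were lower in NB4 by less than the fold cutoff, at -0.48 and -0.34. KIF11 (Eg5), the motor that pushes the spindle poles apart, was at 0.09 in NB4 and -0.18 in MOLM-13.

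Among the spindle assembly factors, TPX2 fell in both lines, and TACC3 and DLGAP5 in NB4. TPX2 (chr20:31739271-31801805, plus strand) activates Aurora A on spindle microtubules. It stood in MOLM-13 at 26.5, 26 and 29.3 RPKM with DMSO and 14.1, 21.7 and 18.1 with FP54, and in NB4 at 124, 113 and 128 with DMSO and 76.8, 73.0 and 73.1 with FP54. The groups were apart in both lines. The log2 fold changes were -0.62 (SE 0.17, adjusted p = 0.0313) and -0.71 (SE 0.08, adjusted p = 5.27e-05), and the MOLM-13 call was lost without FP54 replicate 1 (-0.45) and without DMSO replicate 3 (-0.56, adjusted p = 0.126).

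TACC3 (chr4:1712858-1745171, plus strand), which cross-links kinetochore microtubules, stood in NB4 at 53.6, 72.9 and 56.7 RPKM with DMSO and 36.3, 38.6 and 33.8 with FP54. All FP54 libraries were lower (log2 fold change -0.74, SE 0.12, adjusted p = 0.000448). In MOLM-13 it stood at 14.6, 14.6 and 17.8 with DMSO and 16.6, 21.3 and 14.7 with FP54, with overlapping groups and an estimate of 0.15 (SE 0.17). DLGAP5, a kinetochore fibre protein, fell by 0.52 in NB4. HMMR and ASPM, which act at spindle poles, were called in neither line.

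In the condensin and chromosome structure group, NCAPH fell in both lines, while the other 7 genes were not called. NCAPH is the kleisin subunit of condensin I. In MOLM-13 it stood at 6.31, 4.77 and 5.56 RPKM with DMSO and 2.36, 3.46 and 4.29 with FP54, and in NB4 at 23.7, 21.4 and 26.1 with DMSO and 14.3, 14.9 and 15 with FP54. The groups were apart in both lines, with log2 fold changes of -0.73 (SE 0.22, adjusted p = 0.0444) and -0.68 (SE 0.09, adjusted p = 0.00018). Its MOLM-13 call was lost with no filter on low values (adjusted p = 0.0916) and without each of DMSO replicates 1 and 3 and FP54 replicates 1 and 2 in turn (-0.64, -0.73, -0.50 and -0.77).

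The condensin subunits that NCAPH joins, SMC2 and SMC4, were at 0.19 and -0.04 in NB4 and at -0.14 and -0.32 in MOLM-13. NCAPG and NCAPD2 were at 0.13 and -0.18 in NB4 and at -0.50 and -0.27 in MOLM-13. NCAPG had an adjusted p of 0.0633 in MOLM-13. Its exons share 33.7% of their bases with LCORL on the other strand, and those of SMC4 share 22% with IFT80 and TRIM59. The proliferation marker MKI67 stood in NB4 at 113, 78.2 and 98.9 RPKM with DMSO and 89.5, 89.7 and 95.6 with FP54. DMSO enclosed FP54 there, and the estimate was -0.06 (SE 0.12). TOP2A, which untangles sister chromatids, was at -0.17 in NB4 and -0.35 in MOLM-13. CDCA2, a phosphatase subunit of chromosomes, was at -0.40 in NB4 (adjusted p = 0.0089). The cytokinesis genes ECT2, ANLN and PRC1 were called in neither line. For PRC1, 57.6% of the exon bases are shared with another gene on the same strand, so its RPKM is uncertain.

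**Figure D2:**
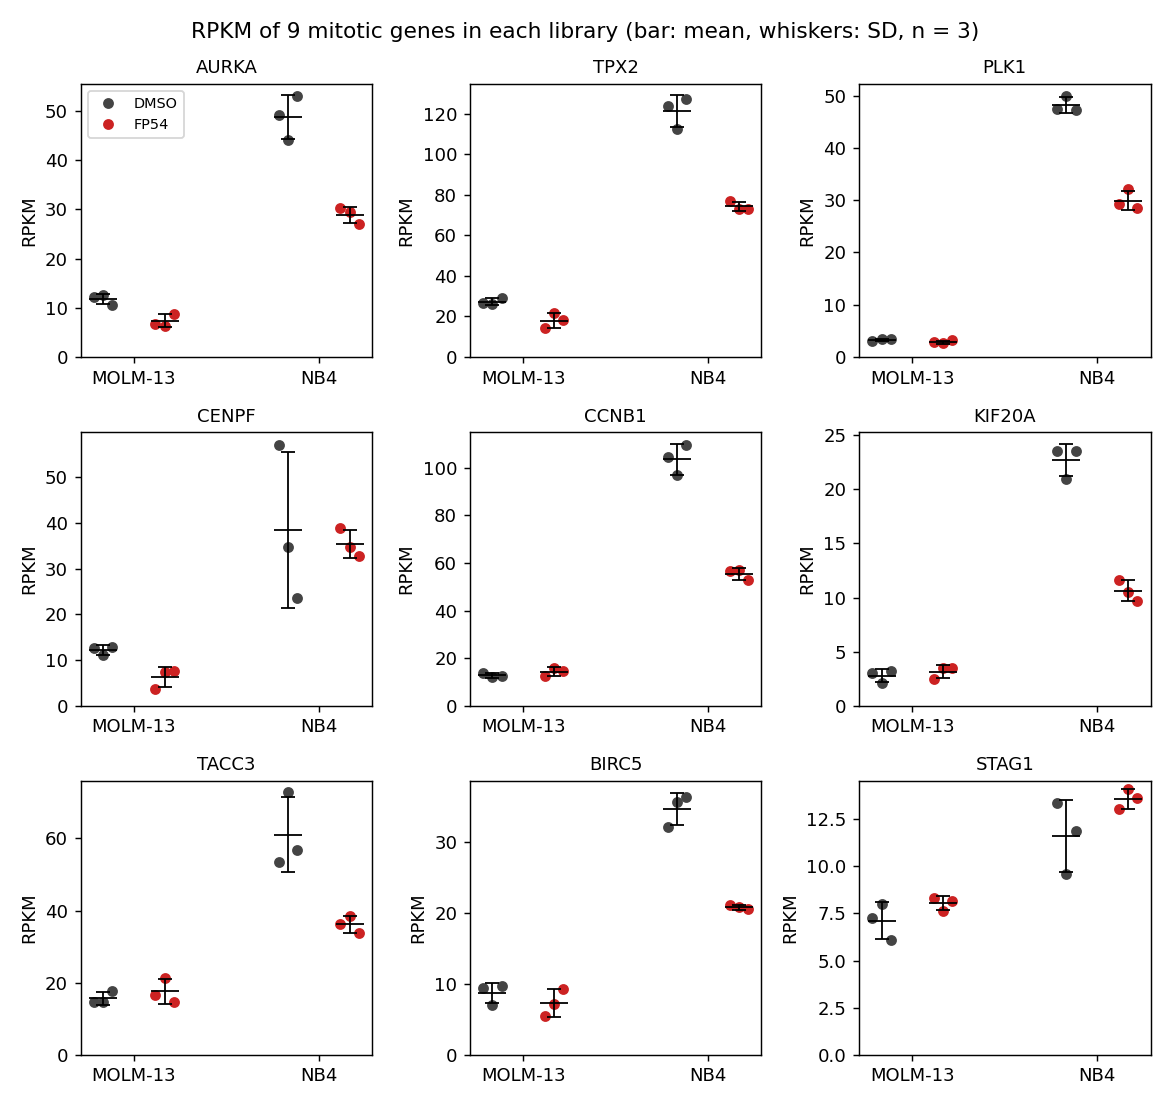
RPKM of 9 mitotic genes in each library, DMSO in grey and FP54 in red, with the mean (bar) and SD (whiskers) of 3 libraries. In NB4 the FP54 points of AURKA, TPX2, PLK1, CCNB1, KIF20A, TACC3 and BIRC5 all lie below the DMSO points, those of CENPF and STAG1 do not, and in MOLM-13 AURKA, TPX2 and CENPF are the 3 of the 9 called lower.

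After 48 h of DMSO, TPX2 (121 RPKM), CCNB1 (104) and MKI67 (96.6) were the highest members in NB4. PRC1 (1.53), UBE2C (6.13) and CDC25C (6.32) were the lowest, as DMSO means. In MOLM-13 SMC4 (69.8), TOP2A (29.1) and NCAPD2 (29.0) were the highest and PRC1 (0.509), CENPA (0.776) and CDC20 (1.64) the lowest. TOP2A and NCAPD2 did not differ beyond their SDs of 1.4 and 2.06, and in NB4 MKI67 did not differ beyond its SD of 17.4 from CCNB1 or from the next gene, TOP2A (92.9 ± 13.4). Because each table was normalized on its own, the levels of the 2 lines were not tested against each other.

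Of the 5 genes called lower in MOLM-13, 4 (80%) were also called in NB4, namely AURKA, TPX2, NCAPH and PTTG1. They make up 25% of the 16 NB4 calls among the 53 genes tested in both lines. Over all 8849 genes tested in both, 283 were called lower in both, which is 35.3% of the 802 MOLM-13 calls and 30.2% of the 937 NB4 calls. The estimate was below 0 in both lines for 37 of the 53 members and above 0 in both for 3. Over all 8849 genes it was below 0 in both for 2842 and above 0 in both for 3138. Across the 53 members the log2 fold changes of the lines had a Spearman correlation of 0.21 and a Pearson correlation of 0.12. Across all genes these were 0.49 and 0.44. These are descriptions across genes, which share libraries and are not independent.

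The difference between the effects in the 2 lines was tested by its own contrast in a model of all 12 libraries. With an adjusted p below 0.05, 3 members had a lower effect in NB4 than in MOLM-13 (5.66% of 53), set against 3.75% of all genes. None had a higher effect in NB4, set against 10.5% of all genes. At an unadjusted p below 0.05 alone 5 members were lower (9.43%) and 2 higher (3.77%). The share of all genes at that cutoff was not computed, so these counts show nothing about the members against all genes. The 3 genes past the adjusted threshold were CCNB1, KIF20A and TACC3, whose values in each library are given above. Each was apart from DMSO in NB4 and overlapped DMSO in MOLM-13, where its estimate was above 0. The effect in NB4 minus that in MOLM-13 was -1.07 for CCNB1 (SE 0.16, adjusted p = 0.000387), -1.26 for KIF20A (SE 0.24, adjusted p = 0.00261) and -0.89 for TACC3 (SE 0.21, adjusted p = 0.012). The call of TACC3 was lost without replicate 1 of every group (adjusted p = 0.0949). PLK1 (-0.48, adjusted p = 0.0528), NCAPG (0.64, adjusted p = 0.056) and CENPF (0.98, adjusted p = 0.116) did not pass, so the calls of PLK1 in NB4 alone and of CENPF in MOLM-13 alone are not shown to differ between the lines.

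**Figure D3:**
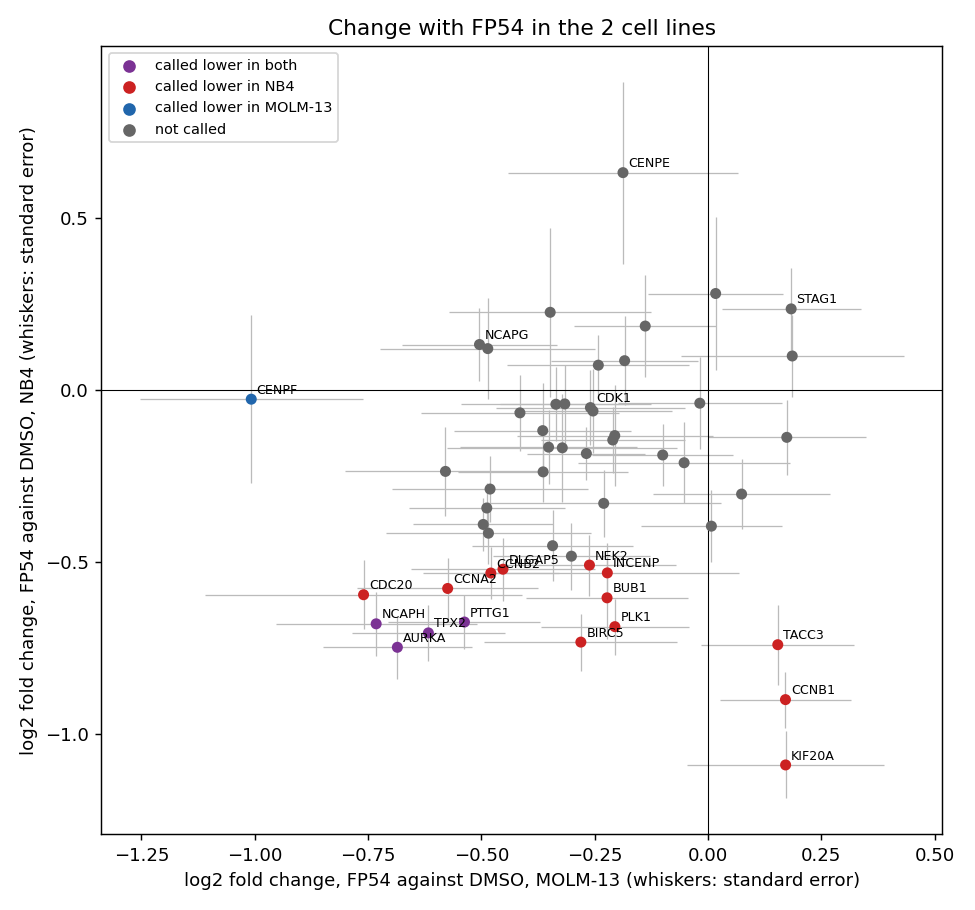
Log2 fold change with FP54 in MOLM-13 (horizontal axis) and NB4 (vertical axis) for the 53 genes tested in both lines, with standard errors as whiskers and colours for calls. CCNB1, KIF20A and TACC3 lie below 0 in NB4 and right of 0 in MOLM-13, whereas AURKA, TPX2, NCAPH and PTTG1 lie below 0 on both axes.

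Promoter sequences were examined because genes of this class share known elements. The cell cycle homology region (CHR), TTTGAA, binds MuvB complexes, and the CCAAT box binds NF-Y. RefSeq promoters of 300 bases (250 before and 50 after the start, GRCh38.p14) were present for 48 of the 55 genes, not for AURKA, BIRC5, BUB3, CDCA2, TPX2, TTK or UBE2C. TTTGAA, on either strand, was found in 33 of the 48 (68.8%), against 15.4% of all 27305 promoters and 9.64% of the 8085 promoters of genes tested in NB4. CCAAT, on either strand, was found in 36 of the 48 (75%), against 35.7% of all promoters and 37.6% of those of genes tested in NB4. Both were found in 26 (54.2%), against 6.08% of all promoters. In 2 places in the members' promoters a TTTGAA match and a CCAAT match overlapped.

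Among the genes that fell in NB4, TTTGAA was present in 6 of 14 promoters (42.9%), and it was in 27 of the 34 of genes not called (79.4%). CCAAT was present in 13 of 14 (92.9%) and in 23 of 34 (67.6%). CCNB1, KIF20A and TACC3, the genes whose effects differed between the lines, held no TTTGAA in these windows, and TACC3 held no CCAAT either. A match is a description of letters and not evidence of binding.

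The stretches below are shown because they hold these letters upstream of genes that fell in NB4, 5′ to 3′ on the gene's strand, with TTTGAA or CCAAT in capitals (TTCAAA and ATTGG are the same elements on the other strand). The hg38 positions are chr16:23678830-23678888 for PLK1, chr15:59105087-59105145 for CCNB2, chr11:62123971-62124010 for INCENP, chr2:26786008-26786055 for CENPA, chr1:43358886-43358945 for CDC20, chr14:55191665-55191724 (minus strand) for DLGAP5, chr5:69167051-69167111 for CCNB1 and chr5:138179006-138179061 for KIF20A.
PLK1: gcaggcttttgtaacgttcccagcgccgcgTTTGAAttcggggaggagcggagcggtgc
CCNB2: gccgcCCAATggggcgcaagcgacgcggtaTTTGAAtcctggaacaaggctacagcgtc
INCENP: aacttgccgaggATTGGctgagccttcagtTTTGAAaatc
CENPA: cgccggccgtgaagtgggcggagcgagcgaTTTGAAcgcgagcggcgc
CDC20: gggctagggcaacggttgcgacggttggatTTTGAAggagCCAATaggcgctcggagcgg
DLGAP5: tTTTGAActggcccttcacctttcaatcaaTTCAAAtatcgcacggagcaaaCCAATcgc
CCNB1: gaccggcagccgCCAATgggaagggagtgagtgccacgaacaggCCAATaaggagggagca
KIF20A: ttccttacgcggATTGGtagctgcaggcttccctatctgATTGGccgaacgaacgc

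PLK1 and CCNB2 each held TTTGAA with its first base 29 bases before the start (position -29). CENPA and INCENP held it at -18 and -10. Each of these 4 promoters also held CCAAT boxes further upstream, which for PLK1 and CENPA lie outside the stretch printed. CDC20 held TTTGAA at -65 with a CCAAT box just after it. CCNB1 and KIF20A held a pair of CCAAT boxes each and no TTTGAA, the first box starting at -87 and -94.

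The Spearman correlation of exon length with log2 fold change was 0.47 across the 55 members and 0.19 across all genes. In MOLM-13 it was 0.28 across 53 members and 0.08 across all genes. The points share libraries, so this is given as a description only. The median exon length was 3597 bases for the 17 genes called lower in NB4 and 4863 for the other 38. CENPF, ASPM and CENPE are long (12471, 11994 and 9928 bases) and were not called in NB4, while TACC3 (8825 bases) was.

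**Figure D4:**
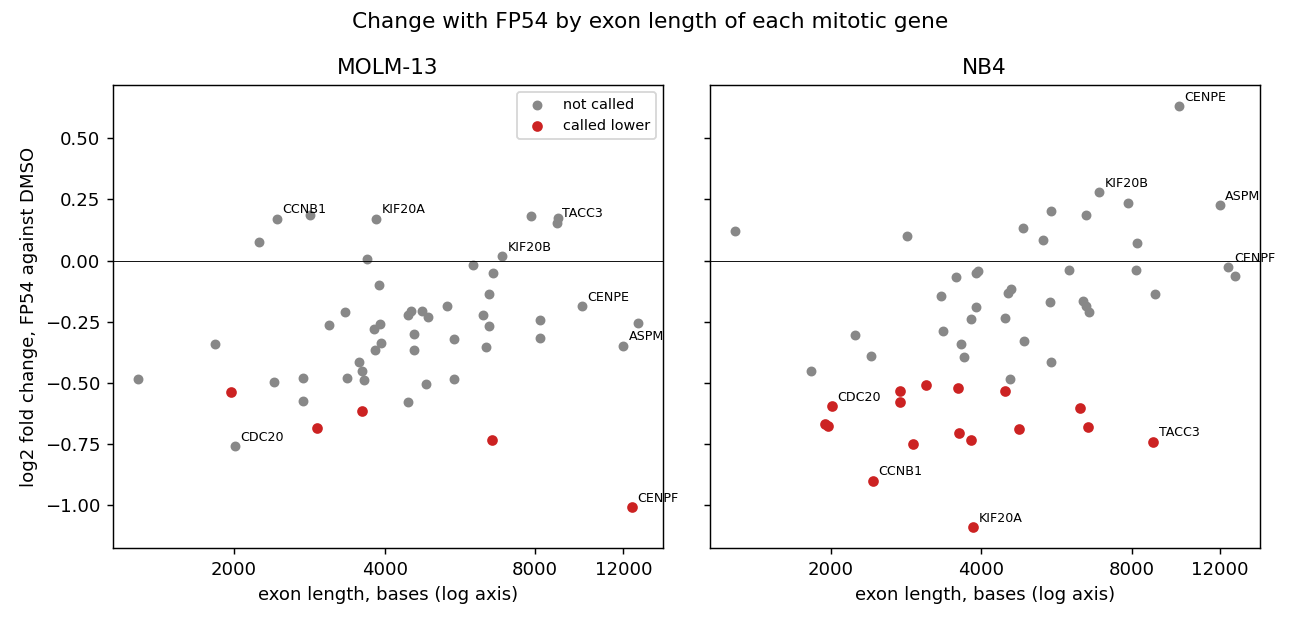
Log2 fold change with FP54 against exon length (log axis, bases) for each mitotic gene, with genes called lower in red. The called genes have a median length of 3597 bases in NB4 and 3605 in MOLM-13, where CENPF, at 12471 bases, is also called.

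In 5 further lists (other kinetochore genes, other cohesin and condensin genes, APC/C subunits, centrosome and spindle pole genes, and mitotic entry regulators), 6 of 90 genes tested fell in NB4 (6.67%, set against 10.7% of all genes) and 3 rose (3.33%, set against 18.6%), with a median log2 fold change of -0.09. In MOLM-13, 6 of 89 fell (6.74%, set against 9.04%) and 1 rose (1.12%, set against 9.3%), with a median of -0.23. The difference between these lists and the 55 was not tested. By list, 4 of 30 other kinetochore genes fell in MOLM-13 and 2 of 31 in NB4, and of 17 other cohesin and condensin genes 0 fell in either line and 1 rose in NB4. Of 18 centrosome and spindle pole genes 0 fell and 1 rose in each line, and of 7 mitotic entry regulators 1 fell in each. CENPW, a subunit of the inner kinetochore, fell in both lines, by 1.06 in NB4 (115 ± 16.6 to 55 ± 5.68 RPKM) and by 0.63 in MOLM-13. SKA3, of the complex that couples kinetochores to microtubules, also fell in both, by 0.53 in NB4 and 0.79 in MOLM-13, and CENPH fell by 0.74 in MOLM-13. CDC25A, the phosphatase that activates CDKs from G1 on, fell in both lines, by 0.54 in NB4 and 1.29 in MOLM-13.

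Among the 17 APC/C genes, UBE2S, which extends ubiquitin chains on its targets, fell in MOLM-13 from 18.5 ± 3.05 to 9.1 ± 1.09 RPKM (log2 fold change -1.01). In NB4 ANAPC15, CDC26 and ANAPC7 fell (-0.88, -0.62 and -0.55), while ANAPC16 rose by 0.96, from 16.8 ± 0.938 to 32.7 ± 0.877 RPKM. The cohesin gene STAG2 rose by 0.52 in NB4. HAUS4, of the augmin complex, rose by 0.58 in NB4, and CEP192, a centrosome scaffold, rose by 0.57 in MOLM-13.

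Of 16 genes of the DREAM complex, its E2F partners and other cell cycle factors, 5 fell in MOLM-13 (31.2%, set against 9.04% of all genes) and 0 rose. In NB4 1 fell (6.25%, set against 10.7%) and 1 rose (6.25%, set against 18.6%). MYBL2, a factor that activates mitotic genes, stood in MOLM-13 at 51.7, 47.1 and 54.3 RPKM with DMSO and 26.8, 34.0 and 34.9 with FP54. The groups were apart, with a log2 fold change of -0.68 (SE 0.15, adjusted p = 0.0128), while in NB4 the groups overlapped at -0.14 (SE 0.09). The difference between the lines for MYBL2 was 0.54 (adjusted p = 0.0477). FOXM1 was called in neither line, at -0.42 in MOLM-13 and -0.10 in NB4, and E2F4, of the DREAM complex, fell in both (-0.89 in MOLM-13 and -0.52 in NB4). TFDP1, the partner of the E2F factors, fell in MOLM-13 (-0.76). CDKN1A, which encodes the CDK inhibitor p21, rose in NB4 from 2.17, 2.33 and 1.48 RPKM with DMSO to 8.66, 7.63 and 7.66 with FP54. Its log2 fold change was 1.97 (SE 0.16) in NB4. In MOLM-13 it fell from 219, 206 and 198 RPKM to 164, 124 and 145, a log2 fold change of -0.53. The difference between the lines was 2.50 (adjusted p = 2.93e-06).

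Of 44 DNA replication genes tested in NB4, 8 fell (18.2%, set against 10.7% of all genes) and 0 rose, with a median of -0.24, the same as that of the mitotic genes to 2 decimals. Of 43 tested in MOLM-13, 6 fell (14%, set against 9.04%) and 0 rose, with a median of -0.42. The replicative helicase gene MCM7 fell in both lines (-0.80 in NB4 and -0.58 in MOLM-13), as did MCM10 (-0.58 and -0.92), and FEN1, which trims Okazaki fragments, fell in NB4 (-0.66).

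**Figure D5:**
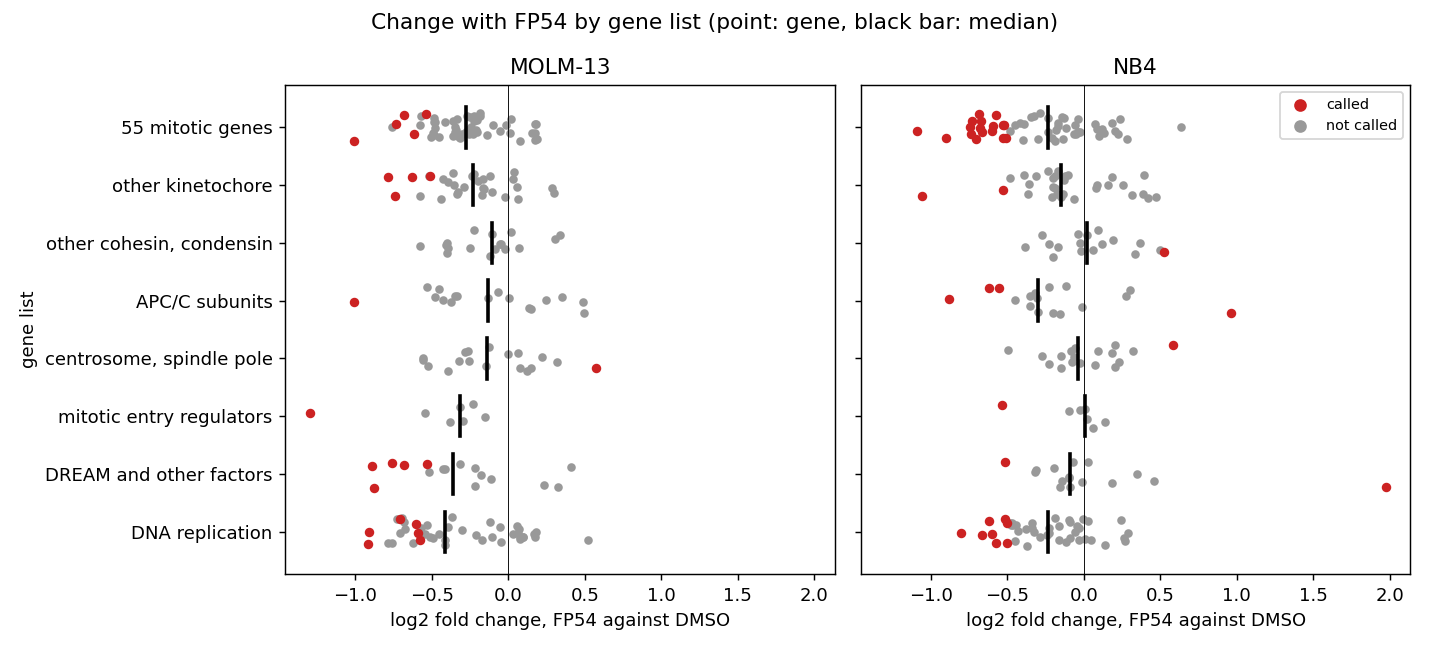
Log2 fold change with FP54 of every gene tested in the list of 55 and in 7 other lists, in MOLM-13 (left) and NB4 (right), with called genes in red and the median as a black bar. The 55 mitotic genes hold 17 red points in NB4, all below 0, and 5 in MOLM-13, and CDKN1A is the point near 2 among the DREAM and other factors in NB4.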

How the data were processed

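PolyA RNA of 12 libraries was sequenced. Per the study's methods, the authors trimmed reads with Cutadapt 4.8, removed duplicates with Clumpify, aligned to hg38 with STAR 2.7.11b, counted protein-coding genes with featureCounts 2.0.3 and deposited RPKM values, 1 table per line. The strand setting is not given in the sources used here. Recovered read numbers used GENCODE v44 exon lengths, and 98.3% to 99.1% of values worth 1 to 20 reads came out within 0.02 of a whole number.

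Genes averaging 1 RPKM or more over a table were fitted with limma 3.58.1 (R 4.3.3, eBayes with trend) on log2(RPKM + 0.1), which understates changes of low genes. Alternatives were another pseudocount, filter, scaling, eBayes setting or cutoff, limma-voom, a replicate block and leaving out libraries. The code was tested on simulated data. The members and lists were chosen with earlier results of these data known. Named genes are those called in either line, those whose effects differ between lines, AURKA, STAG1, the 3 highest and lowest in DMSO and up to 3 called genes of each further list. Other genes, and the promoter stretches, were chosen after their values were seen. The 10 m6A and polysome samples were not used here. Some genes of the further lists are not reported here.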

Additional observations from a re-analysis of the deposited data

Results flagged for a closer look

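For 3 of the mitotic genes the effect of FP54 differed between the lines by the interaction contrast in limma. They are 5.66% of the 53 members tested, near the 3.75% of all genes that differed in that direction. Each effect is given as NB4 minus MOLM-13. The difference was -1.07 (log2) for CCNB1, which was lower in 3 of 3 FP54 libraries in NB4 and overlapped DMSO in MOLM-13. It was -1.26 for KIF20A and -0.89 for TACC3, with the same pattern in their libraries. The call of TACC3 was lost in the limma fit without replicate 1 of every group (adjusted p = 0.0949). The cause was not tested. No group held enough libraries for a test of a single library that stands apart.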

How the results depend on the processing

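In MOLM-13 the 5 genes called lower became 3 with no filter on low values and 1 with a cutoff of 1 on the log2 scale and p below 0.05, and leaving out single libraries gave 2 to 12. By adjusted p the 5 became 1 with no filter and 0 to 10 without single libraries, 0 of them without DMSO replicate 3. In NB4 the 17 became 1 at a log2 fold change of 1 and 27 at an adjusted p below 0.05 with no minimum fold. The 0 genes called higher in NB4 became 3 without DMSO replicate 1, and leaving out single libraries gave 0 to 3. The NB4 median of -0.24 ranged from -0.29 to -0.17 without single libraries. The 3 differences between the lines became 5 with no filter. The cause of these shifts was not tested, and the share of all genes called under these settings is not given here.

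Same-numbered DMSO and FP54 libraries deviated with correlations of -0.26 to -0.06 in MOLM-13 and -0.14 to 0.12 in NB4, so the numbers were not taken to pair the samples. In MOLM-13, DMSO replicates 1, 2 and 3 correlated at 0.59, 0.49 and 0.47 with FP54 replicates 3, 1 and 2. The other differently numbered pairs there were at -0.46 to -0.27, and those of NB4 at -0.26 to 0.22. No fit used differently numbered pairs. With the replicate number as a block, 4 genes were lower in MOLM-13 (3 by adjusted p), with PTTG1 no longer called (adjusted p = 0.0603), 17 in NB4, 1 was higher in NB4 (CENPE), and 3 differences passed the threshold. No setting reversed the direction of a called gene. Of the values for single genes under an alternative, 420 kept their side of the threshold and 28 fell short of it. That tally covers only genes called in the main fits and STAG1, which was not called. Genes that gained a call under an alternative, such as CENPE, ASPM and KIF20B, are not in it. The depth of 5836560 reads in MOLM-13 FP54 replicate 2 limits genes such as CDC20, which had 9 to 71 reads in that line.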
